A study of Homo sapiens with 7 samples.

Results

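Myc binding was examined at 9 genes that decide between survival and death at the mitochondrial surface, or that link this step to p53. The genes were MDM2, BCL2, BCL2L1, MCL1, BAX, BAK1, BBC3, PMAIP1 and BCL2L11, out of 20033 protein-coding genes of the nuclear chromosomes. A peak was assigned to a gene when its summit lay inside the gene's span or within 20 kb of it, and 60 of the 47016 nuclear peaks met this rule. The 3 Myc CUT&RUN libraries, the 3 IgG control libraries and the 1 input all came from HT29 cells, a human colon carcinoma line, kept for 6 h with oleic acid and without serum. Every library carried the same fatty acid treatment, so nothing here shows a response to it. In the labels the IgG libraries carry the name of the Myc antibody too, so groups follow the titles. The peak list has 1 value per peak and none per library, so a spread between replicates cannot be given for any value.

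Myc is a transcription factor that binds DNA as a dimer with MAX, preferably at the E-box, and it is known for priming cells for apoptosis as well as for driving growth. The BCL2 family controls the release of cytochrome c: BAX and BAK1 form the pores, BCL2, BCL2L1 and MCL1 hold the pore formers in check, and the BH3-only proteins BBC3 (PUMA), PMAIP1 (NOXA) and BCL2L11 (BIM) relieve that check. p53 activates BAX, BBC3 and PMAIP1, and it also activates MDM2, the ubiquitin ligase that removes p53. Myc is known to raise p53 through the ARF protein.

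All 9 genes had a peak in reach, against 79.7% of all protein-coding genes. All 9 also had a summit within 1 kb of an annotated end of the span, against 56.4% of all protein-coding genes. The strongest near-end peak of the 9 genes had a median fold enrichment of 7.07, against 7.86 over the 11297 protein-coding genes with such a peak, and 3 of the 9 lay above that median. Fold enrichment is the authors' ratio of Myc signal to the local control level at the summit, with 1 added to each. Fragments divided by the control level, as given below, therefore do not return the fold exactly. BCL2L1, which encodes BCL-XL, had the highest near-end fold of the 9, 20.9 at its promoter, and the most peaks, 16. BCL2 and MDM2 had 1 peak each. Over all protein-coding genes the median was 2 peaks in reach, and 99.0% had fewer than 16. These counts are not corrected for gene length. Per 10 kb of span and flanks, BBC3 with 2.50 peaks and MCL1 with 2.22 were denser than BCL2L1 with 1.61.

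Sequences of the promoters are shown first because the E-box letters varied widely between genes that all had a Myc peak near an end. Each covers 250 bases before and 50 bases from a RefSeq transcription start of build GRCh38.p14, which shares its chromosome sequences with hg38, in the direction of transcription. Capitals of 6 letters mark the canonical E-box CACGTG, or its variant CACGCG, and the lone capital marks the first transcribed base. BAX is shown for its 4 canonical E-boxes, BBC3 for an E-box at the peak summit and BCL2L11 for the variant. BAK1 and BCL2L1 are shown because the strongest promoter peaks lay there without any E-box in the window. The BCL2L1 summit lay outside both of its windows, and the rest of its interval of 5660 bp was not searched. MDM2 is shown because its second start is the p53-responsive promoter in the first intron.
BAX, chr19:48954625-48954924, plus strand: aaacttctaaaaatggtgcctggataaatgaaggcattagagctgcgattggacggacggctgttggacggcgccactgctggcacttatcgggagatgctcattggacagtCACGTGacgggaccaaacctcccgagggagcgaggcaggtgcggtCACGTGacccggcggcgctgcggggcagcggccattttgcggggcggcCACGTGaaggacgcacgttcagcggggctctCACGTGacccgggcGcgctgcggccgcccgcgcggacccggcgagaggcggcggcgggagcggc
BBC3, chr19:47232618-47232917, minus strand: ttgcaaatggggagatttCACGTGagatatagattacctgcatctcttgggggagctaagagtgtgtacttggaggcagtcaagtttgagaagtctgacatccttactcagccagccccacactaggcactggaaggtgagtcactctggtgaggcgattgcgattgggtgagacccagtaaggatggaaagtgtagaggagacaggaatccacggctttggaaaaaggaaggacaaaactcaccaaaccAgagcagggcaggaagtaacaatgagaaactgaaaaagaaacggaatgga
BCL2L11, chr2:111120664-111120963, plus strand: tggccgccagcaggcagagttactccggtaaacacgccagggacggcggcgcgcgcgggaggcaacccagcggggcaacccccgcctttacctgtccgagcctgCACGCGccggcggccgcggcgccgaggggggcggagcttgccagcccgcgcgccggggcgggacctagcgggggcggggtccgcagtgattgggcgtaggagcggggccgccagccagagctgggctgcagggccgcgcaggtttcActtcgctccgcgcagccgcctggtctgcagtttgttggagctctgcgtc
BAK1, chr6:33580227-33580526, minus strand: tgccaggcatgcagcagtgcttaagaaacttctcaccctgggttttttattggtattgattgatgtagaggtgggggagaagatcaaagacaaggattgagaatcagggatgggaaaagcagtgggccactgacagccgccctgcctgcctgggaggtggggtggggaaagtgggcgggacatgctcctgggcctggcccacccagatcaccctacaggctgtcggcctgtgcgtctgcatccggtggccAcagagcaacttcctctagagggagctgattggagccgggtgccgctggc
BCL2L1, chr20:31723914-31724213, minus strand: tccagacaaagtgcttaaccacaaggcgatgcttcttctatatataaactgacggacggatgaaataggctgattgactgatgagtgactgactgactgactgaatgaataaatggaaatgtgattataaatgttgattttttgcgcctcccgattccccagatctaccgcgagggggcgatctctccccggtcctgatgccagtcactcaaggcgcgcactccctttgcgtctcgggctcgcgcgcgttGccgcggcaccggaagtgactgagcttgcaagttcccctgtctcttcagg
MDM2 second start, chr12:68808767-68809066, plus strand: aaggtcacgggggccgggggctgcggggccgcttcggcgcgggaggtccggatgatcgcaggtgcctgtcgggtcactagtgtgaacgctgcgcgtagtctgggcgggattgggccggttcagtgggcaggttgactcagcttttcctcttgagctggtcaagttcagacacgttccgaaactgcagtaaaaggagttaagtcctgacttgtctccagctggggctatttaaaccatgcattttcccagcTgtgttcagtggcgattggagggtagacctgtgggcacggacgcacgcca

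BAX held 4 copies of CACGTG, which begin at positions -138, -93, -45 and -14 from the start. Of all 35116 promoter windows in the table, 5 held 4 or more copies (0.0142%), and 7.26% held at least 1. BBC3 held 1 copy at position -232, centred 16.5 bp from the summit of its promoter peak. BCL2L11 held no CACGTG and 1 CACGCG at position -146, 194.5 bp from its summit. CACGCG or its reverse complement CGCGTG was present in 11.4% of all windows.

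The windows of BAK1, BCL2, BCL2L11, PMAIP1 and both starts of BCL2L1 held no CANNTG, the general E-box, which 68.7% of all windows held. MDM2 held CANNTG at both groups of starts, with 2 copies at the first and 3 at the second, and none of them was CACGTG. BAX held 5 copies of CANNTG, a count that takes in its 4 copies of CACGTG. BBC3 held 2, of which 1 was CACGTG. A further variant, CATGTG on either strand, was in none of these windows and in 11.1% of all windows. The search covered both strands, and a match describes letters only. Parts of the peak intervals outside the windows were not searched. Over the whole table, CACGTG was present in 10.2% of the 3097 windows with a Myc summit inside and in 6.97% of the others.

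Base composition varied as widely as the motifs. CpG counts were 42 in the PMAIP1 window, 39 in those of BCL2L11 and the first MDM2 start, 38 in BAX and 31 in BCL2, against a median of 14 over all windows. BAK1 had 7 CpG and BBC3 had 5, and both of these windows held a Myc summit. The windows of the other 6 genes held no summit, though a peak interval overlapped all of these windows except that of BCL2. GC content ranged from 48% at BBC3 to 74.7% at BCL2L11 and the first MDM2 start, with a median of 58.7% over all windows. No window was found for MCL1 in this table.

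**Figure D1:**
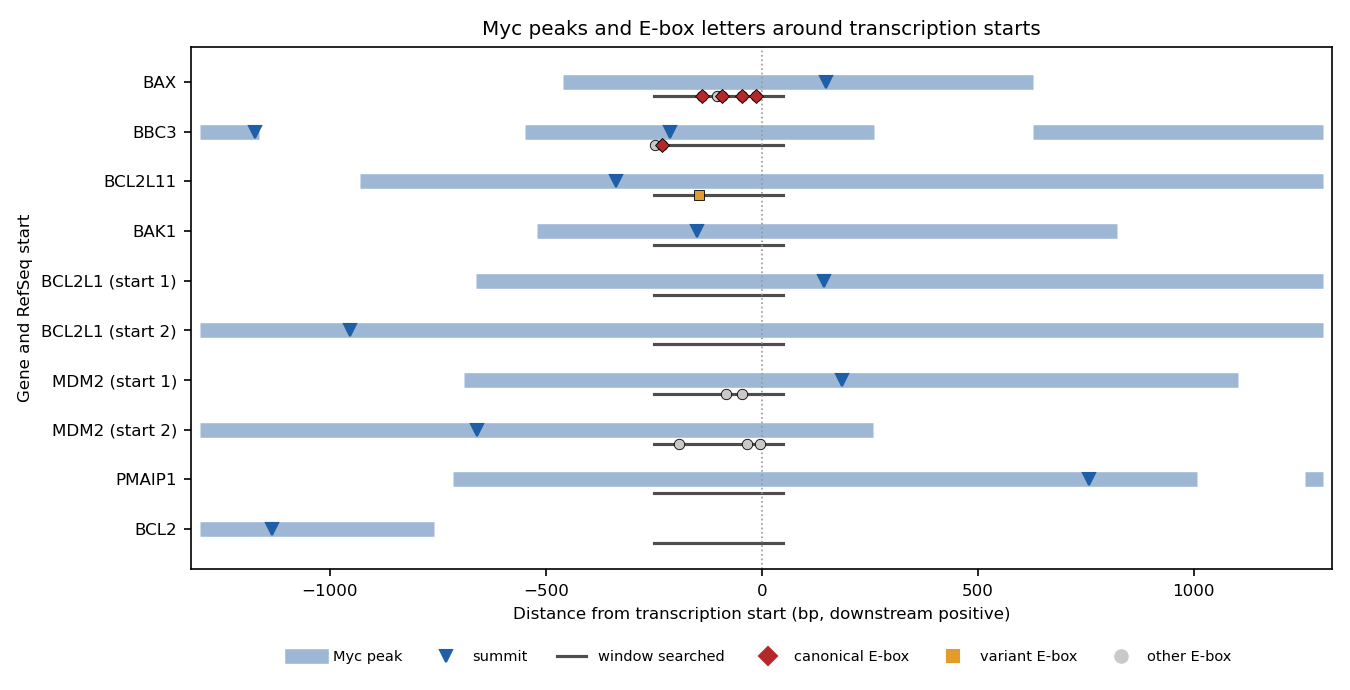
Myc peaks around the RefSeq transcription starts of 8 genes, by distance from the start in bp with downstream positive. Blue bars are peak intervals cut at the plot edge, triangles are summits, dark lines are the 300-base windows searched, and diamonds, squares and circles are the canonical, variant and other E-boxes. BAX shows 4 diamonds upstream of a summit 149 bp inside the gene, BBC3 shows 1 diamond beside its summit, and BCL2 has no peak over its window.

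Among the guardians of survival, BCL2L1 carried the strongest site. BCL2L1 spans 59512 bp on chromosome 20, from 31664452 to 31723963, and its product BCL-XL blocks BAX and BAK1. The promoter summit at 31723820 lay 143 bp inside the 5′ end. Its fold was 20.9 (Poisson 95% counting interval 17.9 to 24.4), with 165 fragments piled up over a local control of 6.93, which put it above 99.4% of all peaks. The interval covered 5660 bp, wider than 99.8% of all peaks. By the fold of its near-end peak BCL2L1 ranked 279 among 11297 genes.

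Peaks continued through the body of BCL2L1. Of its 16 peaks 12 lay inside the span, which was covered by peaks over 35.9% of its length. Summits 10931 and 18889 bp inside the 5′ end had folds of 8.86 (7.16 to 10.8) and 8.48 (6.57 to 10.8), and between them a summit at 15302 bp had 6.82 (5.17 to 8.84). These 3 summits also lay inside the noncoding gene BCL2L1-AS1. The 3′ end had a peak too, 345 bp inside the gene, with a fold of 4.38 (3.22 to 5.83). The other 7 peaks inside the gene had folds between 2.70 and 3.47, and 2 past the 3′ end had 3.13 and 3.66. A weak peak 2036 bp upstream of the 5′ end had a fold of 2.70 (1.66 to 4.18). The second strongest site, with a fold of 14.7 (12.5 to 17.2), lay 15007 bp upstream of BCL2L1 and 320 bp from an end of TPX2, a spindle assembly gene. Chromosome 20 had 3.46 peaks per protein-coding gene, against 2.35 over all chromosomes, and the part of this density in the count at BCL2L1 was not tested.

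MCL1 had many weak sites. Its product is a short-lived guard of BAK1. The gene spans 5053 bp on chromosome 1, from 150574558 to 150579610, and 10 peaks lay in reach, 3 of them inside. Peak intervals covered 68.7% of the span. The strongest near-end peak, 384 bp beyond the higher-coordinate end, had a fold of 4.63 (3.30 to 6.34), and the summit 310 bp inside its lower end had 2.95 (1.79 to 4.63). Peaks in the middle of the gene, 1653 and 3610 bp from the lower end, had folds of 3.20 and 4.27. The highest fold in reach, 10.3 (8.45 to 12.4), lay 13312 bp below the gene and 309 bp from an end of ADAMTSL4. Without that peak the highest fold at MCL1 was 5.95 (4.40 to 7.87), at a summit 5929 bp below the gene. The remaining 4 peaks had folds from 2.72 to 4.43. The peak at the higher end also lay 164 bp from an end of the noncoding gene LOC107985203.

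BCL2 was nearly bare. The founding member of the family spans 196745 bp on chromosome 18, from 63123346 to 63320090, and no summit lay inside it. Of 3356 protein-coding genes of at least 100 kb, 879 (26.2%) likewise had none inside. The only peak in reach lay 813 bp beyond the 5′ end of the span and 1134 bp upstream of the RefSeq start at 63319769. It was 543 bp wide, with a fold of 4.10 (2.69 to 6.02) with 24 fragments over a control of 5.09, close to the median of 4.11 over all peaks. The next summits lay 48185 bp below and 47346 bp above the gene, with folds of 3.77 and 9.41. Chromosome 18 had 2.41 peaks per protein-coding gene, near the value over all chromosomes.

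**Figure D2:**
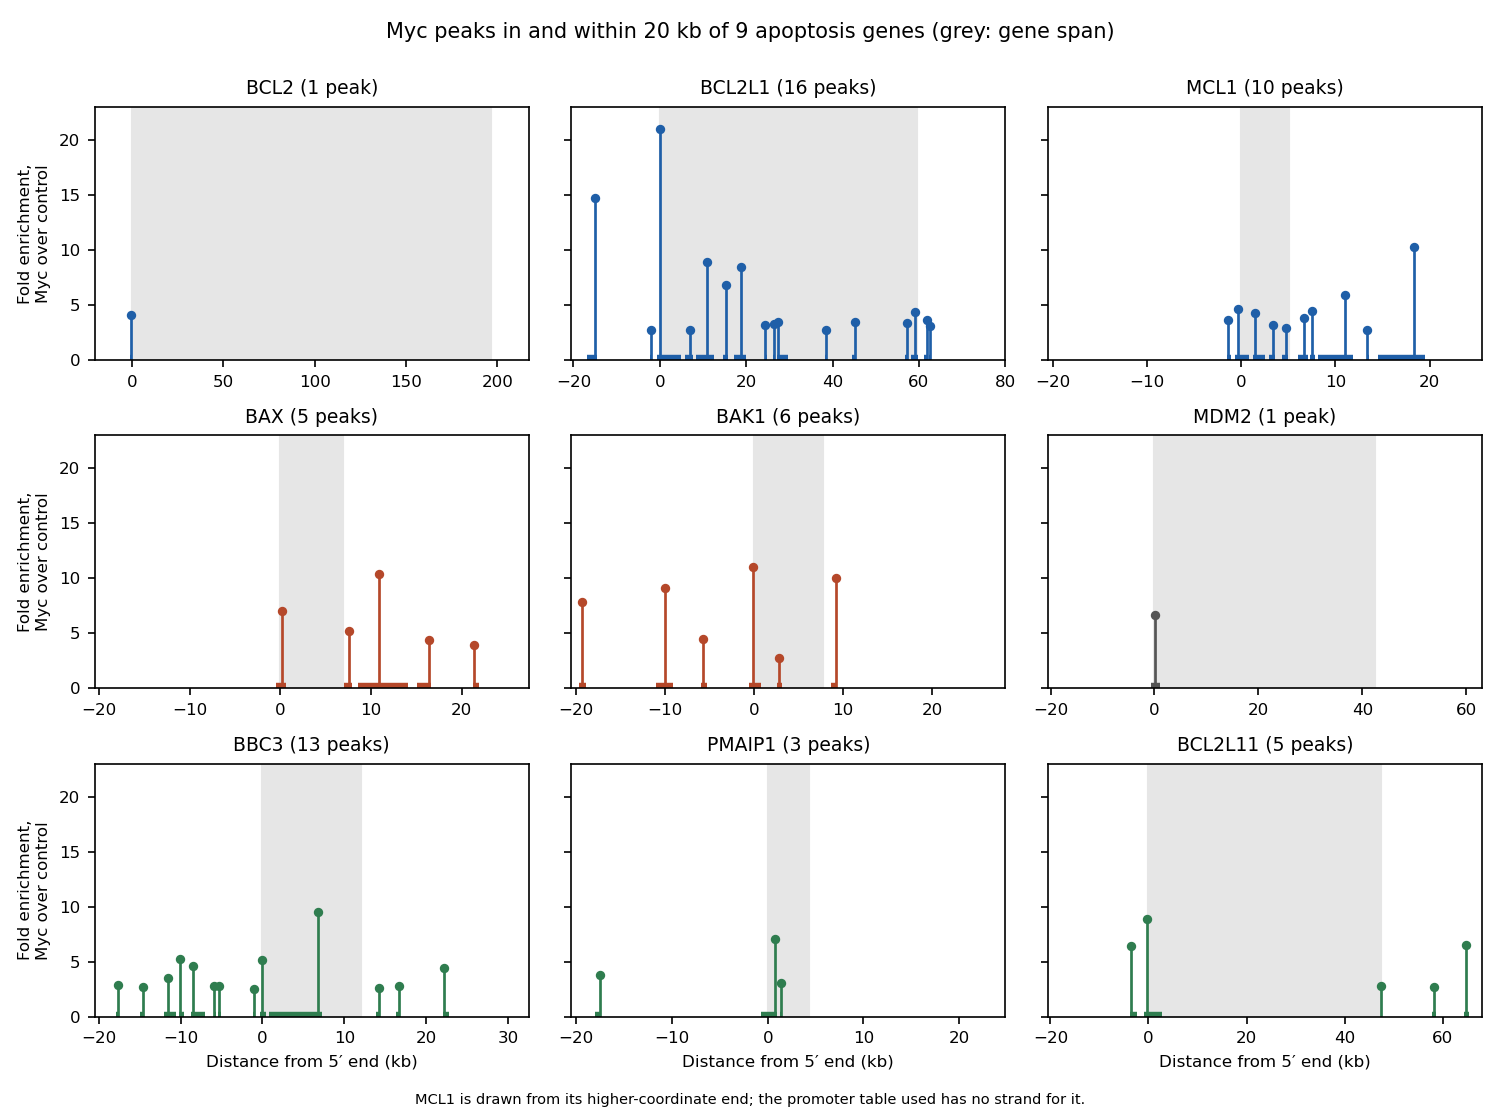
Myc peaks at the 9 genes, with distance in kb from the 5′ end, or for MCL1 from the higher-coordinate end, on the horizontal axis and fold enrichment of Myc over control on the vertical axis. Each stem is a summit, thick bars at the base are peak intervals and grey marks the gene span. BCL2L1 has a stem of 20.9 at its 5′ end and 12 summits inside, BCL2 and MDM2 have 1 peak each, and BBC3 has 13.

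Both pore-forming genes had a peak at the promoter, and that of BAK1 was stronger in value. At BAK1 (chromosome 6, 33572552 to 33580276) the summit lay 151 bp upstream of the start, with a fold of 11.0 (8.54 to 13.9) with 66 fragments over a control of 5.09. At BAX (chromosome 19, 48954875 to 48961798) the summit lay 149 bp inside the gene, with a fold of 7.07 (5.25 to 9.33) with 48 fragments over 5.93. The counting intervals of these folds overlapped. The BAX window shown above held 4 canonical E-boxes and no summit, and the BAK1 window held its summit and no E-box. All 4 E-boxes of BAX lay upstream of the summit, the nearest 160.5 bp away, inside an interval of 1088 bp.

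BAK1 had 5 further peaks and BAX 4. A peak of 738 bp lay 1463 bp beyond the 3′ end of BAK1 with a fold of 10.1 (7.95 to 12.6), and the nearest end of another protein-coding gene, ITPR3, was 50233 bp away. Upstream of BAK1, summits at 5691, 9982 and 19308 bp had folds of 4.50, 9.14 and 7.85, the first of them 137 bp from an end of the noncoding gene LINC00336. A weak peak 2818 bp inside the gene had 2.78. At BAX a peak 608 bp beyond the 3′ end had a fold of 5.21 (3.76 to 7.04). The highest fold in reach of BAX, 10.4 (8.29 to 12.8), lay inside FTL, the ferritin light chain gene, 485 bp from its end, and 2 further summits lay inside GYS1. Leaving out peaks at the ends of other coding genes, the highest fold at BAX was 7.07, that of its promoter.

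The BH3-only genes differed in number of peaks more than in fold. BBC3 had 13 peaks, BCL2L11 had 5 and PMAIP1 had 3, while their strongest peaks in reach had folds of 9.49, 8.86 and 7.08. BBC3 encodes PUMA, a strong activator of apoptosis downstream of p53, and spans 12037 bp on chromosome 19, from 47220824 to 47232860. Its strongest peak lay inside the gene, with the summit 6758 bp from the 5′ end of the span and a fold of 9.49 (7.55 to 11.8). This interval was 6483 bp wide, the widest of the 60 and wider than 99.9% of all peaks. It ended at 47232040, short of the only RefSeq start used for BBC3, at 47232667. Other starts of BBC3 were not examined. Peaks covered 57.6% of the span of BBC3.

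At the only RefSeq start used for BBC3, the promoter peak was separate and weaker. Its summit lay 213 bp upstream of the start, 20 bp beyond the span, with a fold of 5.19 (3.60 to 7.27) with 32 fragments over a control of 5.36. The canonical E-box printed above stood 16.5 bp from this summit. Upstream of it 8 more summits lay within 20 kb, with folds from 2.53 to 5.26. Downstream of the gene 3 more had folds of 2.63, 2.85 and 4.43, the last 71 bp from an end of SAE1. The median fold over the 13 peaks was 2.86, the lowest median of the 9 genes.

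BCL2L11 encodes BIM, which binds all the guardians, and spans 47532 bp on chromosome 2, from 111120914 to 111168445. The promoter summit lay 338 bp upstream of the start, with a fold of 8.86 (7.16 to 10.8) with 92 fragments over a control of 9.50. The interval was 3720 bp wide and ran over the start. A companion 3545 bp upstream had a fold of 6.46 (4.86 to 8.43) and lay inside ACOXL, 1179 bp from its end. At the 3′ end a narrow peak of 274 bp had a fold of 2.79 (1.66 to 4.43). Between the promoter and that peak no summit lay inside the gene. Beyond the 3′ end, summits at 10787 and 17314 bp had folds of 2.73 and 6.56.

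PMAIP1 encodes NOXA, the partner of MCL1, and spans 4310 bp on chromosome 18, from 59899996 to 59904305. Its main summit lay 757 bp inside the gene, with a fold of 7.08 (5.21 to 9.42) with 45 fragments over a control of 5.50. A weaker summit at 1374 bp had 3.06 (1.93 to 4.65), and 1 upstream at 17554 bp had 3.77 (2.43 to 5.63). The neighbourhood was otherwise empty. Past the window, the next summits lay 540833 bp below and 149811 bp above the gene, with folds of 6.56 and 2.52.

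MDM2, the p53 ligase gene, had its only peak over both promoters. The gene spans 42515 bp on chromosome 12, from 68808172 to 68850686. The summit at 68808358 lay 186 bp inside the first start and 659 bp upstream of the start at 68809017, the p53-responsive promoter printed above. The fold there was 6.64 (5.13 to 8.47), with 63 fragments over a control of 8.64, above that of 76.2% of all peaks. The interval, 1792 bp wide from 68807483 to 68809274, took in both groups of starts. No other summit lay within 20 kb, and the next ones were 61844 bp below and 82117 bp above the gene.

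Ordered by the near-end fold, the genes ran from BCL2L1 at 20.9 over BAK1 at 11.0, BCL2L11 at 8.86, PMAIP1 at 7.08, BAX at 7.07, MDM2 at 6.64, BBC3 at 5.19 and MCL1 at 4.63 to BCL2 at 4.10. Counting intervals did not overlap in 14 of 36 pairs. BCL2L1 stood apart from all 8 others, BAK1 also from MDM2, BBC3, MCL1 and BCL2, and BCL2L11 also from MCL1 and BCL2. Below BCL2L1, no gene was apart from its neighbour in this order. These intervals cover counting error only, and no test over samples was possible. By role, the near-end folds had medians of 9.03 in the 2 effectors, 7.08 in the 3 BH3-only genes and 4.63 in the 3 guardians, whose own range of 4.10 to 20.9 held all the other genes.

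**Figure D3:**
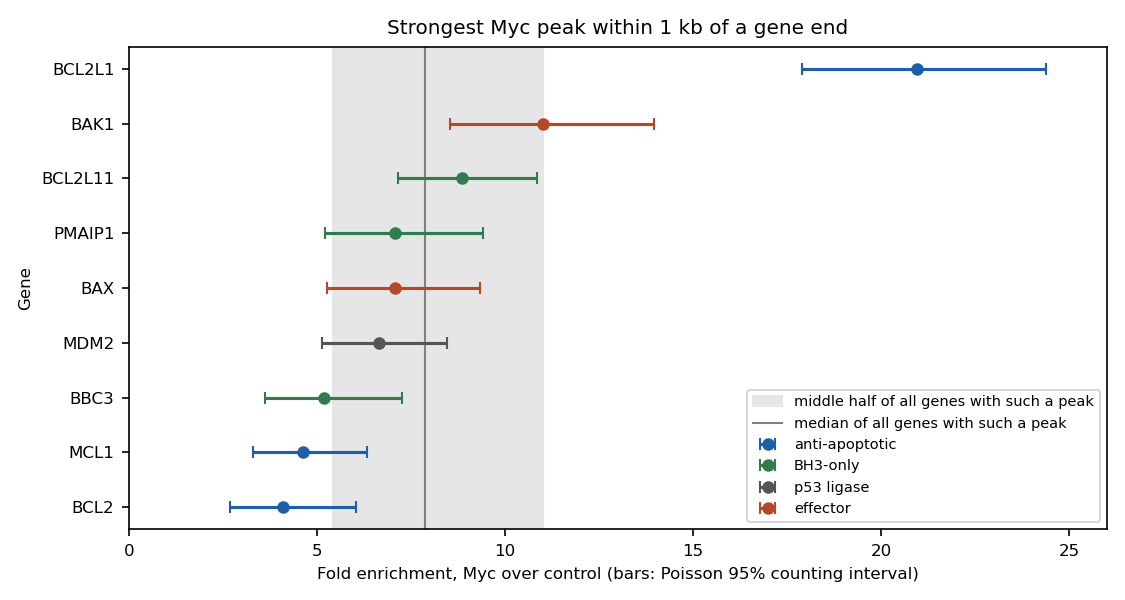
Strongest Myc peak within 1 kb of an end of each of the 9 genes, with fold enrichment on the horizontal axis, genes on the vertical axis, bars for the Poisson 95% counting interval and colour for the role. The grey band runs from 5.42 to 11.0, the quartiles of 11297 genes, and the line is their median of 7.86. BCL2L1 lies to the right of the band, and BBC3, MCL1 and BCL2 lie to its left.

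Both ends of a gene could carry a peak. A summit lay within 1 kb of both ends at BCL2L1, MCL1, BAX and BCL2L11, 4 of the 9 genes, against 5.85% of all protein-coding genes. For MCL1 both ends are only 5053 bp apart. Of the 8 genes with a RefSeq start in the promoter table, 7 had a summit within 1 kb of it, against 60.1% of the protein-coding genes in that table. The exception was BCL2. At 6 of the 9 genes the strongest peak in reach was the one near an end, and at MCL1, BAX and BBC3 it was elsewhere.

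Over all 60 peaks the folds were close to those of the whole list. The median fold was 4.18, against 4.11 over all peaks, and folds ran from 2.53 to 20.9. The median width was 814.5 bp, against 688 bp, and 16.7% of the 60 were wider than 2 kb, against 10.0% of all peaks. A fold of at least 10 was found in 6 of the 60 (10%), against 9.72% of all peaks. Median pileups were 29 fragments in both sets. The 14 peaks near an end had a median fold of 5.20, and the other 46 had 3.72. No value is given for the same split over all peaks, so it cannot be called particular to these genes. Of the 46 not near an end, 4 had their summit within 1 kb of where another coding gene ends or begins, namely TPX2, ADAMTSL4, FTL and SAE1. Closest to the 20 kb limit, a BAK1 peak at 19308 bp had a fold of 7.85, and just outside it a summit 21035 bp above BBC3 had 2.44 and another 21107 bp below BAX had 3.85.

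Wider gene lists, chosen with earlier results of these data known, were set beside these 9. Of 13 other BCL2 family genes, 8 had a near-end peak (61.5%, against 56.4% of all protein-coding genes), with a median fold of 8.55. The highest folds were at BMF with 16.0 (13.0 to 19.4), BAD with 13.6 (11.1 to 16.4) and BCL2L12 with 12.3 (10.1 to 14.9). The BAD peak also lay near ends of PLCB3 and GPR137, and that of BCL2L12 near an end of IRF3. BOK, BIK, HRK, BCL2A1 and BCL2L14 had none, with the nearest summits to an end at 7453, 4248, 29362, 37267 and 16760 bp.

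p53 regulators had near-end peaks in 18 of 20 genes (90%, against 56.4% of all protein-coding genes) with a median fold of 12.5, against 7.86 over all genes with such a peak. They were led by PPP1R13L, which encodes the p53 inhibitor iASPP, with 21.1 (18.1 to 24.4), the ribosomal protein gene RPL5 with 18.1 (15.1 to 21.5) and the checkpoint kinase gene ATR with 17.0 (13.9 to 20.4). The PPP1R13L peak was shared with POLR1G and that of RPL5 with DIPK1A. Peaks of RCHY1, ATM, CHEK2 and TP53BP1 also lay near an end of another gene. PPP1R13B and the MDM2 deubiquitinase gene USP7 had none, with the nearest summit 17891 and 1268 bp away. Chosen after its value was seen, MDM4, the relative of MDM2, had 14.3 (11.5 to 17.6). The interval of MDM4 lay above that of MDM2.

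p53 target genes had near-end peaks in 19 of 24 genes (79.2%, against 56.4% of all protein-coding genes) with a median fold of 7.92, against 7.86 over all genes with such a peak. PIDD1, a scaffold for caspase activation, had 29.5 (25.8 to 33.5) at an end shared with the ribosomal protein gene RPLP2. The ribonucleotide reductase gene RRM2B had 16.9 (14.3 to 20), and the polymerase gene POLH, near XPO5, had 14.4 (11.6 to 17.7). Of the 5 without one, CDKN1A, FAS, DDB2 and AEN had their nearest summits to an end at 3026, 26135, 2022 and 3791 bp. In the apoptosome and IAP list, 14 of 17 genes had one (82.4%, against the same 56.4%) with a median fold of 8.39, against the same 7.86. HTRA2 with 12.9 (10.6 to 15.6), near AUP1, AIFM1 with 11.5 (9.17 to 14.2) and BIRC3 with 10.9 (8.75 to 13.3) led it. CASP9, VDAC1 and DIABLO had none within 1 kb, with summits at 2105, 1410 and 1577 bp. These shares and medians are descriptions, with no test of any list.

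**Figure D4:**
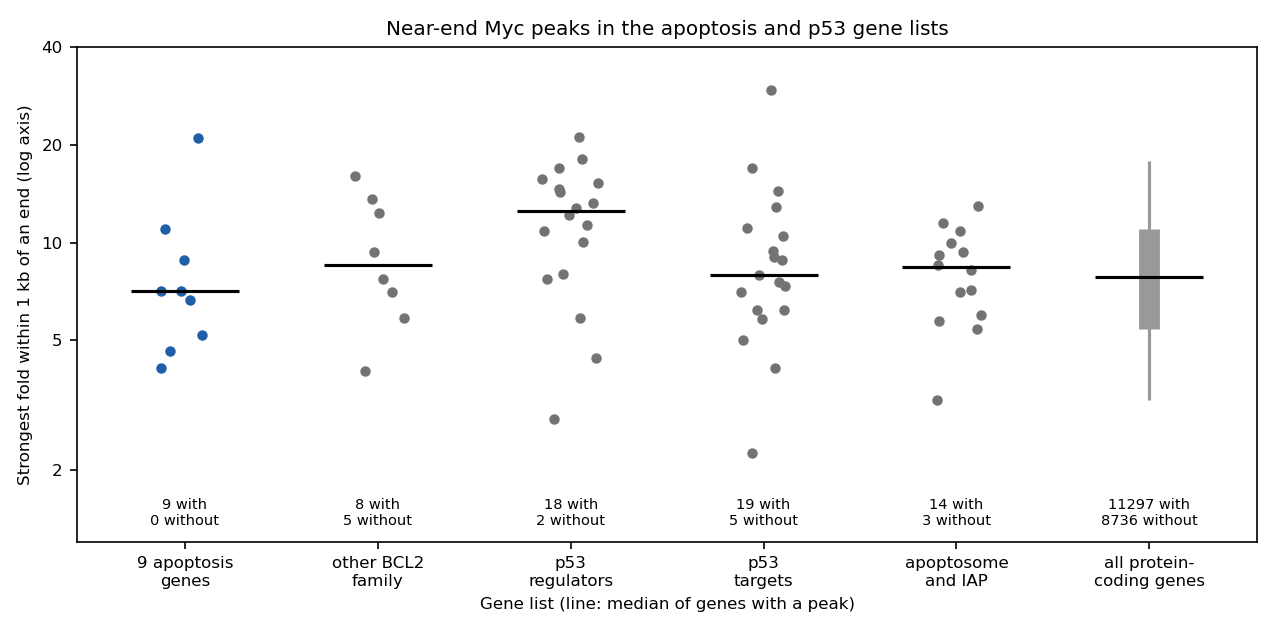
Strongest fold within 1 kb of an end, on a log axis, for genes with such a peak in the 9-gene set, in 4 further lists and over all protein-coding genes, with lines at the medians and, for all genes, bars for the quartiles and the 5th to 95th percentile. Counts below give genes with and without a near-end peak. The p53 regulators have the highest median, 12.5, and the 9 apoptosis genes the lowest, 7.07.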

How the data were processed

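Myc CUT&RUN, IgG and input libraries of HT29 cells were represented by 1 deposited peak list, placed on hg38. Per the submitters' processing notes the tools included BWA 0.7.15 and MACS2 2.1.2. The sources used here do not give their settings, the control, how replicates were joined or the depth per library. The authors deposited for each peak a fold ratio at the summit, the −log10 of its p-value and q-value, and a whole-number score, which was not used. The fold was taken as the pileup plus 1 over the control level plus 1. From fold and −log10 p a whole-number pileup was solved for all 47016 nuclear peaks within 0.001, and on 1996 simulated peaks 100% were recovered. For each fold a 95% interval was taken from the exact Poisson limits of the pileup, holding the control fixed. Amplified fragments carry no molecular identifiers, so they cover counting error only. Gene spans and promoter sequences came from RefSeq tables of GRCh38.p14, with positions counted from 1. Exons were not used. The promoter table matched 8 of the 9 genes. The genes and lists were chosen with earlier results of these data known. All 9 genes are described, and of each further list the 3 highest folds and most genes without a near-end peak. Some items are not reported here. No test was possible, since no value belongs to a single library. Computations used Python 3.11.15, SciPy 1.17.1 and pandas 2.3.3.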

Additional observations from a re-analysis of the deposited data

How the results depend on the processing

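Under 10 planned and 2 added settings, the added ones chosen after seeing the data, 174 of 193 recomputed values stayed within a set range. The range was the counting interval for a highest fold and 1.5 times for a count. For the share of all genes it was a Wilson interval of 55.7 to 57.1%. For the median fold it ran from 2.80 to 5.87, the medians of the peaks' lower and upper limits. Many values could not change, since near-end distances do not enter peak counts or these folds, and windows do not enter near-end counts. The tally is therefore no measure of robustness. All 9 genes kept a summit in reach wherever this was recomputed. They kept one near an end too, except with 500 bp, where 7 did, and when distances were taken from RefSeq starts, where 7 of 8 did. The share of all protein-coding genes with a near-end summit was 47.9% with 500 bp, 61.6% with 2 kb, 67.3% with 5 kb, 53.2% at a −log10 q of at least 5, 50.04% at a fold of at least 4, 60.2% by interval overlap, 49.8% by nearest gene and 60.1% from RefSeq starts. At a fold of at least 4 the set held 31 peaks with a median of 6.64. With a window of 50 kb the highest fold was 9.41 at BCL2, 17.3 at MCL1, 20.1 at BAX and 15.9 at BBC3. It was 5.95 at MCL1 with 10 kb. With nearest genes only, and without summits near another coding gene's end, it was 5.95 at MCL1 and 7.07 at BAX. No peak interval held several summits, so keeping the strongest summit of each interval could change nothing. No paired analysis was possible because the list holds no value per library, and for the same reason no replicate could be left out. The weakest of the 60 folds rests on a pileup of 15 fragments, and weak folds were not compared with each other.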

Other observations

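Equal values recurred among the 60 peaks. The BCL2L11 promoter peak and the BCL2L1 peak 10931 bp inside its 5′ end each had 92 fragments over a control of 9.50, and so the same fold of 8.86. A control level within 0.01 of 9.50 was found in 5 of the 60 peaks and in 0.968% of all peaks. That level was picked from the 60 peaks themselves, so these shares do not show an excess. Other control levels, such as 7.20 and 6.55, also recurred among the 60. The lowest control level, 5.09, was shared within 0.01 by 11 of the 60 (18.3%) and by 23.7% of all peaks. The cause was not tested.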
